A study of Mus musculus with 6 samples.

Results

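Ion cotransporters, exchangers and chloride channels move sodium, potassium, chloride, bicarbonate, phosphate, sulfate and small solutes across the plasma membrane and across the membranes of endosomes and lysosomes. The members were the measured genes of the Slc4, Slc5, Slc8, Slc9, Slc12, Slc20, Slc24, Slc26 and Slc34 solute carrier families, the Clcn chloride channel and exchanger genes, and Cftr. The rule that picks them uses the gene symbol alone. Of the 18193 genes measured, 65 were members.

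The data are 6 arrays of total RNA from the uterine horns of ovariectomized female mice of 8 weeks, all GATA2 f/f on a mixed background. By convention f/f denotes a floxed allele on both chromosomes, and the labels name no recombinase. In 3 arrays the mice had received oil, in which steroids are usually dissolved, and in 3 they had received P4, the standard abbreviation of progesterone. Dose and time are not stated in the labels used here. Whether each array is a separate animal is not stated either, so the p-values speak of the spread between these arrays, part or all of which may be technical. The comparison asks which transcripts differ after the hormone in a uterus deprived of ovarian steroids.

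In the uterus, transporters of these families set the volume and composition of the luminal fluid, its pH, and the solute content of epithelial, stromal and muscle cells. Secondary active carriers use the sodium gradient made by the sodium pump to bring in phosphate, sugars, inositol or chloride, or to drive out protons and calcium. Anion exchangers of the Slc4 and Slc26 families trade chloride for bicarbonate, sulfate, oxalate or iodide. The Clcn genes encode both plasma membrane chloride channels and the chloride and proton exchangers of endosomes and lysosomes, and Cftr is the cyclic AMP-regulated chloride and bicarbonate channel of epithelia.

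Most members had similar intensities after oil and after P4, and a few stood out. After P4 the endosomal exchanger gene Clcn5 rose 2.19-fold, the phosphate cotransporter gene Slc20a1 1.63-fold and the anion exchanger gene Slc26a6 1.32-fold. The inositol cotransporter gene Slc5a3 and the sulfate transporter gene Slc26a11 fell, with log2 differences of -0.53 ± 0.13 and -0.41 ± 0.08. These 5 of 65 members (7.69%) passed the test, which was limma's adjusted p under 0.05 over all genes. Of all genes 13.0% passed it. The members that were higher were 3 of 65 against 6.08% of all genes, and those that were lower were 2 of 65 against 6.94%. The members' share was therefore below the background. Differences are of log2(intensity + 16) with the standard error, and folds come from that scale, which understates the change of dim genes. In RNA from a whole tissue, fewer cells of a type and less RNA per cell cannot be told apart.

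Promoters are shown for the 2 members with the largest increases and for Slc5a3, the one decrease with an entry, because the progesterone receptor and GATA2, which the series title names, are DNA-binding factors. They are RefSeq windows of GRCm38.p6 that run from 250 bases before to 50 bases after an annotated start, written 5′ to 3′, with matches to the steroid receptor half-site AGAACA, on either strand, in capitals. Clcn5 and Slc20a1 have 2 annotated starts each in the table.
Clcn5 start 1, chrX:7319309-7319608, minus strand: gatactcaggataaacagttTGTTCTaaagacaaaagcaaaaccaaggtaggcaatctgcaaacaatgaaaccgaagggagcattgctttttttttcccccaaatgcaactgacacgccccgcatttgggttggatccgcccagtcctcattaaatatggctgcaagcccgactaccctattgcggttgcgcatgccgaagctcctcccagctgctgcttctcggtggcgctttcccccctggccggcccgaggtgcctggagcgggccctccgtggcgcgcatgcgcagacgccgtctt
Clcn5 start 2, chrX:7188665-7188964, minus strand: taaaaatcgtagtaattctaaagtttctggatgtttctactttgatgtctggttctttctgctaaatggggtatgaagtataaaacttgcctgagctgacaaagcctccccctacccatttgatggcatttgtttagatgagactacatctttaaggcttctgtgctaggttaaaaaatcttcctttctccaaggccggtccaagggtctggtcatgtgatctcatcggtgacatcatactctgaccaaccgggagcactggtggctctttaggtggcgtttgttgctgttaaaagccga
Slc20a1 start 1, chr2:129198523-129198822, plus strand: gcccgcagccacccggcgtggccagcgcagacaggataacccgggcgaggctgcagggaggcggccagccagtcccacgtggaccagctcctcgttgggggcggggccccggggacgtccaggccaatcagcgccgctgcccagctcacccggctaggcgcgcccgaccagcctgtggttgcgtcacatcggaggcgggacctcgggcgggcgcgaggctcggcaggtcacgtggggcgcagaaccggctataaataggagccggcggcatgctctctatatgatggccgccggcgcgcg
Slc20a1 start 2, chr2:129206846-129207145, plus strand: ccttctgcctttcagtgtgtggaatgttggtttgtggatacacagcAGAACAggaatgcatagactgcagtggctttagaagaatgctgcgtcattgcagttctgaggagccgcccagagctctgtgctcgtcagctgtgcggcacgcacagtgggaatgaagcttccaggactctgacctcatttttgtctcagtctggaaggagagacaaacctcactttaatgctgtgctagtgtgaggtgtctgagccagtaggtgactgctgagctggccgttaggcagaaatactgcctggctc
Slc5a3 start 1, chr16:92058072-92058371, plus strand: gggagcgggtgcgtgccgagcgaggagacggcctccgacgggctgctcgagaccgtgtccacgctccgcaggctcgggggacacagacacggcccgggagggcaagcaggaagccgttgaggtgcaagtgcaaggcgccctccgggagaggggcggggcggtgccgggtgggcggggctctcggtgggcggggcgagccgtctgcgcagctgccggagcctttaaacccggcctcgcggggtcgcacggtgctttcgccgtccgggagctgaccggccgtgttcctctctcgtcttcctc
The match in Clcn5 lies 230 bases before the first start listed, and that in Slc20a1 lies 204 bases before the second.

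The half-site occurred in 19.0% of the 32851 promoter windows of the table and in 11 of the 69 windows (15.9%) of the 52 members it holds. Among the 6 windows of the members that passed the test, 2 held it, those with capitals above. GATA sites were searched on both strands as AGATAA, as the same word with a final G (AGATAG), and as both of these words with T as the first letter (TGATAA here, and there TGATAG). They occurred in 29.8% of all windows, in 17 of the members' 69 (24.6%) and in 0 of the 6. The table has no window for Slc26a11. The first window of Slc20a1 and that of Slc5a3 were rich in G and C, at 73.0% and 73.3% against a median of 52.7% over all windows. The windows of Clcn5 had 56.0% and 43.3%. These are matches of letters, and binding was not measured here.

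Clcn5 encodes ClC-5, which exchanges chloride for protons in early endosomes and is best known from the kidney tubule, where its loss impairs the uptake of filtered protein. Its intensity was 653, 563 and 722 on the oil arrays and 1549, 1269 and 1487 on the P4 arrays. Every P4 array was thus well above every oil array, and the lowest P4 value exceeded the highest oil value. The means were 646 ± 79.6 after oil and 1435 ± 147 after P4 (SD, n = 3 each), a log2 difference of 1.13 ± 0.12 with a limma adjusted p of 0.00143. It was the 1 member with at least a 2-fold change that passed the test, beside 1.56% of all genes. Clcn5 also kept its call with any 1 array left out, with adjusted p up to 0.00968, and with both arrays numbered 2 left out (0.0379).

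Clcn5 has 4 probe sets, and 3 of them were higher after P4. Over all probe sets, of which 8.62% passed, the probe set used above had an adjusted p of 0.00127. A second one read 338, 285 and 354 after oil and 973, 778 and 894 after P4, a difference of 1.39 ± 0.12 (adjusted p 0.000541). Another was dim, with means of 50.9 ± 8.53 and 107 ± 21.5, and differed by 0.87 ± 0.14 (adjusted p 0.00873). The fourth overlapped between the groups at 78.0 ± 8.95 and 82.3 ± 3.74 and did not pass (0.07 ± 0.10, adjusted p 0.785). The RefSeq table places several microRNA genes inside Clcn5, which were not analysed here.

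**Figure D1:**
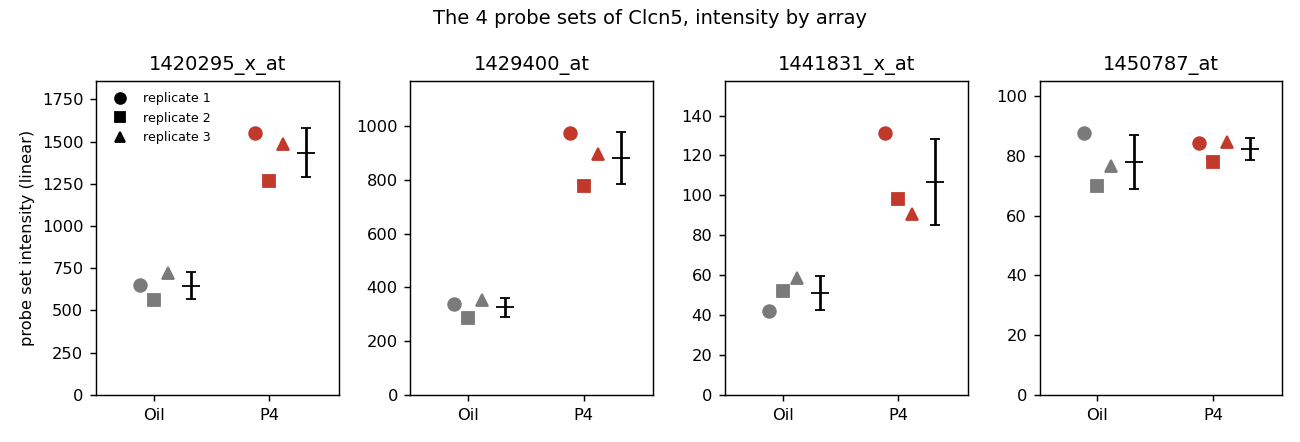
Intensity on a linear axis of each of the 4 probe sets of Clcn5 on the 3 oil and 3 P4 arrays, with the mean and SD of each group beside the points and the replicate number as the symbol. In the first 3 panels all P4 arrays lie above all oil arrays, and in the fourth, at means of 78.0 and 82.3, the groups overlap.

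None of the other 6 Clcn genes passed. Clcn3 and Clcn4, the nearest relatives of Clcn5 among endosomal exchangers, had differences of 0.08 ± 0.08 and 0.09 ± 0.09. The other probe sets of Clcn3 had 0.26 ± 0.10, 0.23 ± 0.09, 0.15 ± 0.09 and 0.03 ± 0.10. All but the last had every P4 array above every oil array, and none passed in the fit over all probe sets. The other probe set of Clcn4 had 0.19 ± 0.10 and did not pass. Clcn7, the exchanger of lysosomes and of bone-resorbing cells, had 0.12 ± 0.10, and the plasma membrane channel Clcn2 had -0.01 ± 0.12. Clcn1, the chloride channel of skeletal muscle, had -0.22 ± 0.10 and Clcn6 of late endosomes -0.35 ± 0.15 (adjusted p 0.219 and 0.198). Clcn6 passed as lower without oil replicate 3 (adjusted p 0.0268). Ostm1, the subunit that ClC-7 needs for its stability, rose from 276 ± 28.0 to 404 ± 30.3 (0.53 ± 0.10, adjusted p 0.0140), a call that was lost without oil replicate 1 or 2 (up to 0.0674).

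Sodium-driven phosphate uptake is carried by the Slc20 and Slc34 families, in which Slc20a1 rose. Slc20a1, the widely expressed cotransporter PiT1, was at 461, 358 and 460 after oil and at 747, 714 and 648 after P4. The groups did not overlap, with the P4 arrays about as far apart from each other as the oil arrays. The means were 426 ± 59.3 and 703 ± 50.2, a difference of 0.71 ± 0.12 (adjusted p 0.00831). The call held with any 1 array left out (up to 0.0359) and was lost with both arrays numbered 2 left out (0.105). Its 2 other probe sets, both dim, had 0.27 ± 0.11 and 0.08 ± 0.09 and did not pass. Slc20a2, the related PiT2, had 852 ± 27.3 after oil and 852 ± 40.8 after P4, a difference of 0.00 ± 0.08.

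Slc34a2, the phosphate cotransporter NaPi-IIb of lung and gut epithelia, was lower after P4 within each replicate number but spread widely between numbers. It read 161, 167 and 509 on oil arrays 1 to 3 and 75.6, 65.4 and 323 on P4 arrays 1 to 3. The array numbered 3 was the highest of its group in both, and P4 array 3 was above oil arrays 1 and 2. Without a block the difference of -0.92 ± 0.60 did not pass (limma adjusted p 0.407). With the replicate number as a block it fell by 0.92 ± 0.11 and passed (adjusted p 0.00201), and the differences within numbers 1, 2 and 3 were -0.95, -1.17 and -0.63. The kidney cotransporters Slc34a1 and Slc34a3 had 0.06 ± 0.11 and -0.03 ± 0.13.

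Among anion exchangers of the Slc26 family 1 of 10 measured members rose and 1 fell, where 6.08% of all genes rose and 6.94% fell. Slc26a6, an exchanger of chloride with oxalate and bicarbonate at the apical side of epithelia, read 104, 97.5 and 118 after oil and 145, 149 and 141 after P4. All P4 values were above all oil values. The means were 107 ± 10.5 and 145 ± 4.29, a difference of 0.40 ± 0.09 (adjusted p 0.0309). The call was lost without oil replicate 1, oil replicate 2 or any 1 of the P4 arrays (up to 0.123), and with both arrays numbered 2 left out (0.275). 

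Slc26a11, a sulfate and chloride transporter, was lower after P4. It read 404, 376 and 379 after oil and 293, 277 and 287 after P4. The groups were far apart for their spread, with means of 386 ± 15.7 and 286 ± 8.23 and a difference of -0.41 ± 0.08 (adjusted p 0.0135). The call was lost without oil replicate 1 (0.0662) or oil replicate 2 (0.0527), with both arrays numbered 2 left out (0.155), and on scaling the arrays to their hybridisation controls (0.0606). In the RefSeq table Slc26a11 overlaps Sgsh, a lysosomal sulfatase gene, whose own probe set had 267 ± 10.5 and 267 ± 20.3 (0.00 ± 0.09).

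The other 8 Slc26 genes did not pass. Slc26a1, Slc26a2, Slc26a3, Slc26a5, Slc26a8 and Slc26a10 had differences from -0.06 for Slc26a10 to 0.11 for Slc26a5, the motor protein of outer hair cells. All of these but Slc26a2 lay among the dimmest 30% of genes, where the scale used understates change and spread. Slc26a2, the sulfate transporter of cartilage, had 402 ± 22.3 and 434 ± 84.1. Slc26a7, an anion exchanger of kidney and stomach, read 466, 695 and 1183 after oil and 274, 604 and 733 after P4. It was lower after P4 within each number, and the groups overlapped. The difference of -0.54 ± 0.41 did not pass without the block (adjusted p 0.486) and passed with it (-0.54 ± 0.11, adjusted p 0.0152).

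The Slc5 family couples sodium to sugars, inositol, iodide, choline, vitamins and monocarboxylates. Of its 11 measured members 1 passed, as lower, where 6.94% of all genes did. Slc5a3 takes up myo-inositol, an organic osmolyte. It read 1252, 1091 and 1066 after oil and 948, 720 and 700 after P4, with every P4 array below every oil array. The means were 1136 ± 101 and 789 ± 138, a difference of -0.53 ± 0.13 (adjusted p 0.0347). The call was lost without any 1 of the oil arrays, P4 replicate 2 or P4 replicate 3 (up to 0.126), without both arrays numbered 2 (0.264), with scaling to the hybridisation controls (0.0813) and with the mean of its 3 probe sets (0.399). The 2 other probe sets had 0.05 ± 0.12 and -0.06 ± 0.13.

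Slc5a3 overlaps Mrps6 in the RefSeq table, a gene for a mitochondrial ribosomal protein. The probe set of Mrps6 had 935 ± 32.3 and 944 ± 69.7, a difference of 0.01 ± 0.08 (adjusted p 0.953). Of the other Slc5 genes, Slc5a11, a second inositol cotransporter, had 303 ± 33.1 and 378 ± 160 (0.23 ± 0.25). Slc5a5, the iodide symporter, had 0.17 ± 0.15, Slc5a6, the multivitamin cotransporter, 0.12 ± 0.09 and Slc5a7, the choline transporter of cholinergic neurons, 0.13 ± 0.10. None of these 4 passed.

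**Figure D2:**
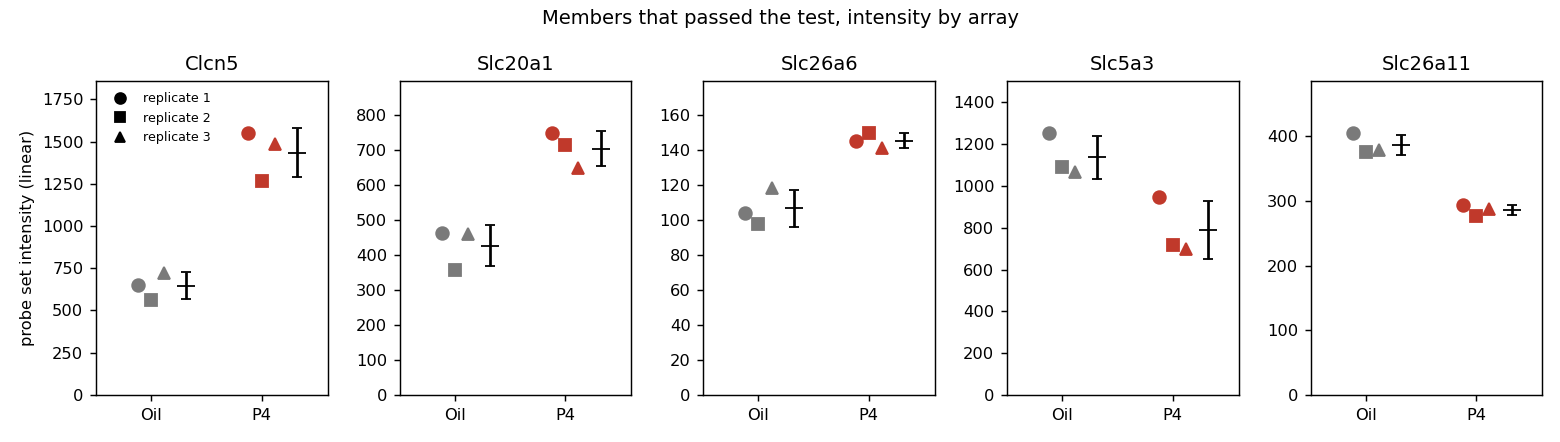
Intensity on a linear axis from 0 of the 5 members that passed the test, on 3 oil and 3 P4 arrays, with the mean and SD of each group beside the points and the replicate number as the symbol. In each panel the P4 arrays lie all above (Clcn5, Slc20a1, Slc26a6) or all below (Slc5a3, Slc26a11) the oil arrays.

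In the cation-chloride cotransporter family, Slc12, none of the 8 measured members passed, where 13.0% of all genes did. Slc12a2, the cotransporter NKCC1 that loads cells with sodium, potassium and chloride, read 2713, 2474 and 2794 after oil and 3391, 2823 and 2902 after P4. The groups did not overlap, but the difference of 0.19 ± 0.09 did not pass (adjusted p 0.244). Of the potassium-chloride cotransporters, which let chloride out, Slc12a4 had 380 ± 32.9 and 472 ± 53.8 (0.30 ± 0.11, adjusted p 0.126), and Slc12a7 had 887 ± 34.4 and 734 ± 58.8 (-0.27 ± 0.09, adjusted p 0.0806). With the replicate block Slc12a4 passed as higher (0.0283), while Slc12a7 did not pass (0.0648). The kidney cotransporters Slc12a1 and Slc12a3 and the neuronal Slc12a5 were dim, with -0.10 ± 0.11, 0.05 ± 0.09 and -0.21 ± 0.11.

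Kinases that control the Slc12 cotransporters were also measured, along with Cul3, Cab39 and Cab39l, which are not kinases. WNK kinases sense chloride and activate the kinases SPAK, encoded by Stk39, and OSR1, encoded by Oxsr1, which phosphorylate the cotransporters. Of 9 measured genes of this cascade 2 rose and 0 fell, where 6.08% of all genes rose and 6.94% fell. The median log2 difference was 0.21, the value of Cul3, against -0.01 over all genes. The list was chosen with earlier results of these data known, so the counts and the median are a description. Oxsr1 read 386, 385 and 426 after oil and 542, 562 and 490 after P4 (0.40 ± 0.09, adjusted p 0.0243). Wnk4 read 609, 529 and 464 after oil and 809, 720 and 716 after P4 (0.48 ± 0.11, adjusted p 0.0293). Both sets of arrays were apart. Oxsr1 lost its call without oil replicate 1, oil replicate 2, P4 replicate 1 or P4 replicate 2 (up to 0.102), and Wnk4 without any 1 array but oil replicate 1 (up to 0.105). Stk39 had 173 ± 10.2 and 211 ± 16.3 (0.26 ± 0.09, adjusted p 0.111) and Wnk1 -0.11 ± 0.08.

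No calcium and sodium exchanger of the Slc8 and Slc24 families passed the test as set above, and 3 of them passed under the alternatives given here. Slc8a1, the exchanger NCX1 of muscle, read 619, 605 and 492 after oil and 469, 464 and 438 after P4. The groups did not overlap, and the difference was -0.31 ± 0.10 (adjusted p 0.0968). It passed with the block (0.0344) and without oil replicate 3 (0.0362). Slc24a3, a potassium-dependent sodium and calcium exchanger, had 5297 ± 458 and 4357 ± 434 (-0.28 ± 0.10, adjusted p 0.0966). It passed with the block (0.0182), with quantile normalization (0.0498) and without P4 replicate 1 (0.0381). Slc24a4, a relative best known from tooth enamel, differed in the other direction at 65.2 ± 1.69 and 82.0 ± 3.88 (0.27 ± 0.08, adjusted p 0.0734), and passed as higher with scaling to the hybridisation controls (0.0226) and in the fit on the mean of all probe sets of each gene (0.0418). Slc8a2 and Slc8a3, exchangers of brain and skeletal muscle, had -0.21 ± 0.17 and 0.17 ± 0.13.

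Sodium and proton exchangers of the Slc9 family and bicarbonate transporters of the Slc4 family had small differences, and none passed. The 7 measured Slc9 genes had differences from -0.24 to 0.05 with a median of -0.05. In 0 of them were the groups apart, beside 31.8% of all genes. The smallest p among them was that of Slc9a3, the exchanger NHE3 of kidney and gut brush borders, at 47.6 ± 1.25 and 38.2 ± 7.93 (-0.24 ± 0.12, adjusted p 0.239). The 9 measured Slc4 genes ran from -0.22 to 0.11 with a median of -0.03. Of these, 5 lay among the dimmest 30% of genes, as did 6 of the 7 Slc9 genes. The scale used understates the change of dim genes. Slc4a2, the widespread chloride and bicarbonate exchanger AE2, read 558, 491 and 511 after oil and 490, 388 and 458 after P4 (-0.22 ± 0.11, adjusted p 0.234). Slc4a1, the anion exchanger of red cells, was at 57.6 ± 4.47 and 59.4 ± 2.71.

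Slc4a4, the sodium bicarbonate cotransporter NBCe1, gave different answers by probe set. The probe set used here had 272 ± 20.5 and 296 ± 31.0 (0.11 ± 0.10, adjusted p 0.573). Another of its 5 probe sets read 138, 140 and 141 after oil and 171, 191 and 208 after P4, a difference of 0.40 ± 0.10 that passed in the fit over all probe sets (adjusted p 0.0381). A further 2 had 0.48 ± 0.16 and 0.45 ± 0.14 and did not pass (0.121 and 0.0934), and the fifth had -0.14 ± 0.11. Over the 39 members with more than 1 probe set, 3 of the 66 probe sets not used above passed, 2 of Clcn5 and this 1 of Slc4a4. At an unadjusted p under 0.05, 0 of the 66 had the sign opposite to that of the probe set used.

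Seen over all 65 members, 30 differences were above 0 and 35 below, with a median of -0.01, the same as over all genes. A difference under 0.2 in size was found for 44 members (67.7%) and for 65.1% of all genes. The groups did not overlap in 13 members, 6 higher and 7 lower, where 31.8% of all genes had groups apart, 14.3% higher and 17.5% lower. At an unadjusted p under 0.05, 5 members were higher (7.69%) and 6 lower (9.23%), beside 11.9% and 14.7% of all genes. The mean level of 30 members lay among the dimmest 30% of genes. Without those dimmest genes 5 of 35 members passed, beside 2598 of 12735 genes.

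**Figure D3:**
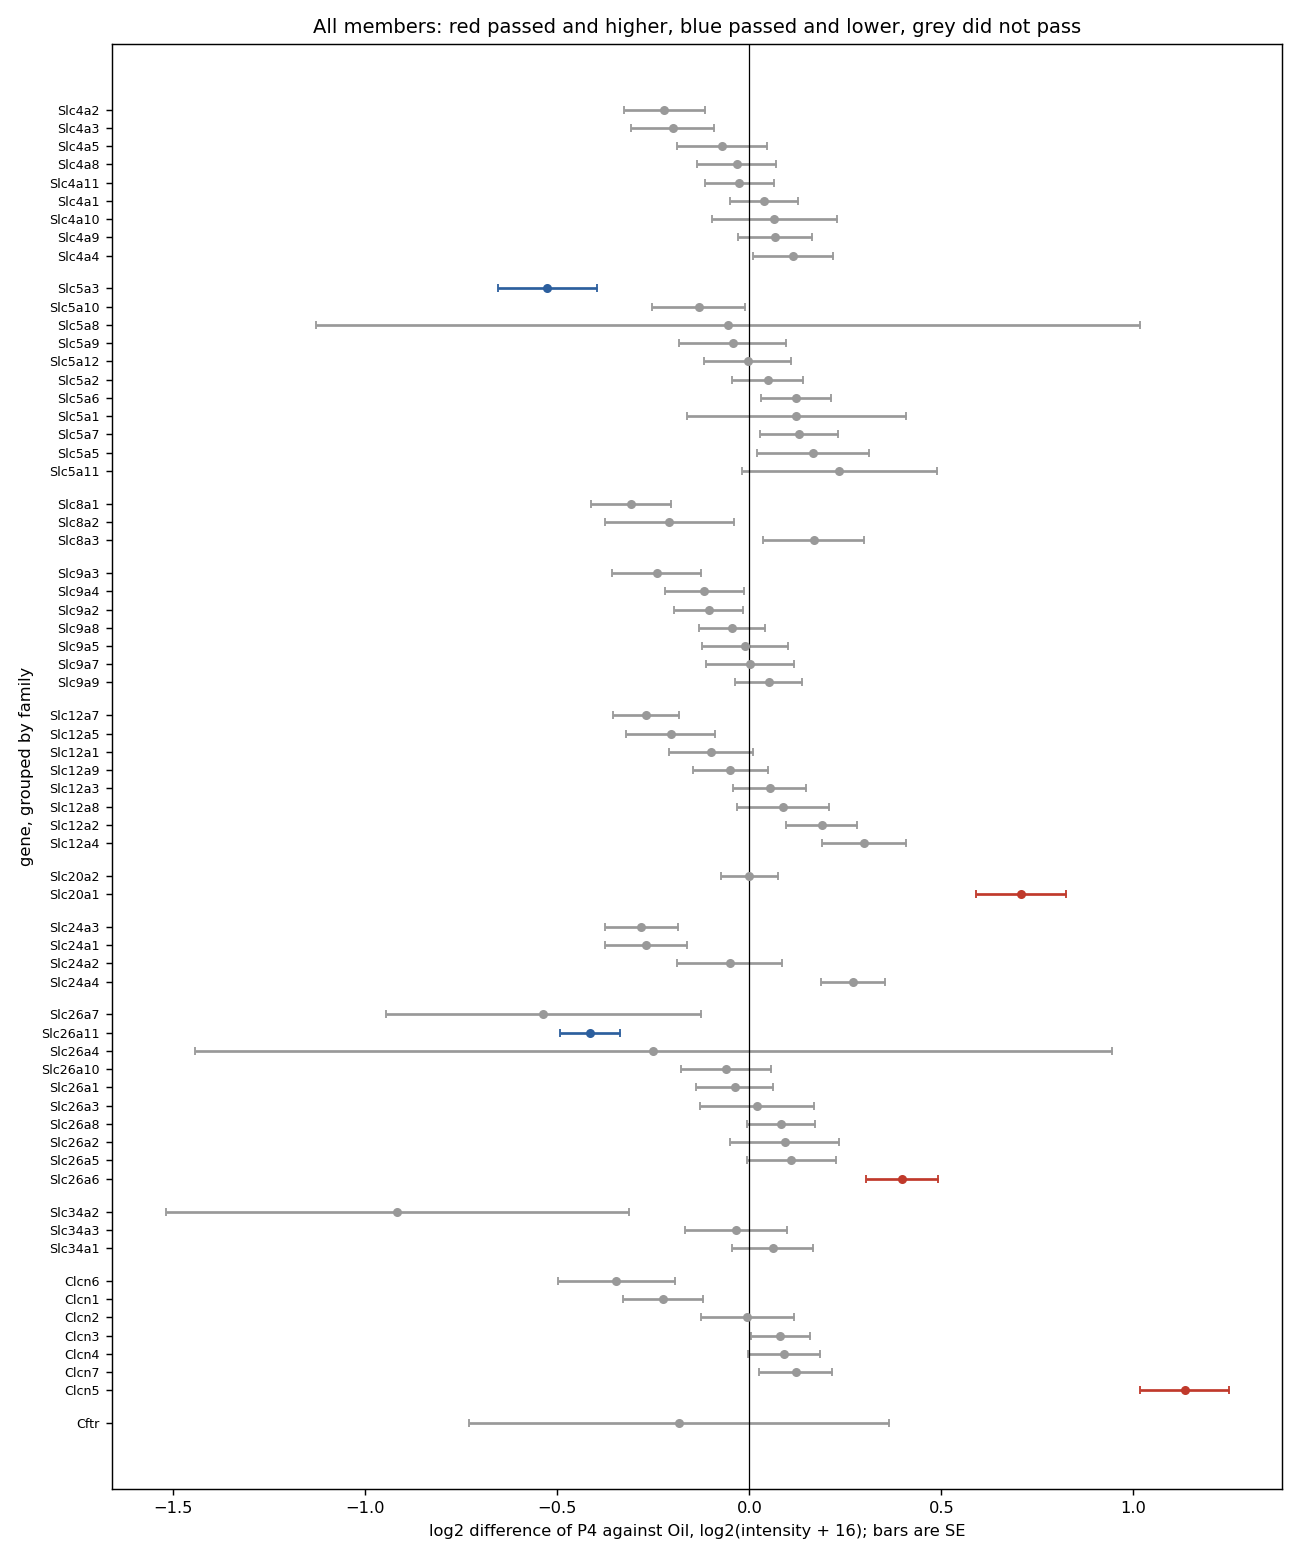
Log2 difference of P4 against oil for each of the 65 members, grouped by family, with bars of 1 SE from the limma fit. Red marks the 3 members that passed as higher, blue the 2 that passed as lower, and grey the 60 that did not pass, and the widest bars belong to Slc26a4 and Slc5a8.

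A few members varied far more between replicate numbers than between oil and P4. Slc26a4, the iodide and chloride exchanger pendrin, read 38.4, 34.8 and 712 on oil arrays 1 to 3 and 31.6, 36.5 and 462 on P4 arrays 1 to 3. Slc5a8, a sodium-coupled transporter of lactate and butyrate, read 10.4, 22.2 and 294 after oil and 17.8, 15.2 and 249 after P4. In both genes the arrays numbered 3 were at least 11.2 times as bright as the brightest of the other 4. Their differences of -0.25 ± 1.19 and -0.06 ± 1.07 did not pass, with or without the block.

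Cftr and Slc5a1 followed the same order of arrays to a smaller degree. Cftr read 69.9, 75.5 and 175 on oil arrays 1 to 3 and 32.6, 74.1 and 218 on P4 arrays 1 to 3, a difference of -0.18 ± 0.55 (adjusted p 0.888). Its other probe set was dim, at 12.2, 7.82 and 11.7 after oil and 5.95, 7.96 and 9.15 after P4. Slc5a1, the sodium and glucose cotransporter of gut, read 63.7, 65.7 and 113 after oil and 70.5, 63.2 and 142 after P4. In both genes array 3 was the brightest of each group with the probe set used. With Slc34a2 these made 5 of 65 members (7.69%) with both arrays numbered 3 at least 1.5 times above each of the other 4, where 147 of 18193 genes (0.808%) had that order. For the numbers 1 and 2 the same count was 0 members and 0 genes. This order of arrays was singled out after the values were seen, so the counts are a description.

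Marker genes of other cells were set beside this order. The summed intensity of 4 granulocyte markers was 345, 331 and 5943 on oil arrays 1 to 3 and 312, 6857 and 9239 on P4 arrays 1 to 3. It was high on both arrays numbered 3 and also on P4 array 2, where Slc26a4 and Slc5a8 were low. S100a8 and S100a9 carried it on the arrays numbered 3, where Camp was at 97.3 after oil and 99.1 after P4 and Ngp at 157 and 160. Camp and Ngp were high on P4 array 2 alone, at 379 and 514. The sum of 4 macrophage markers was highest on both arrays numbered 3, at 3509 after oil and 4879 after P4, against at most 2875 on the other 4 arrays. Cd14 carried this order, at 1781 and 3209 on the arrays numbered 3. Csf1r and Cd68 were higher on P4 array 2 (1028 and 187) than on P4 array 3 (979 and 181). Adgre1 was higher on P4 array 2 (483) than on oil array 3 (459). The sum of 8 epithelial markers was 21042, 20891 and 22460 on the oil arrays and 18505, 12488 and 21066 on the P4 arrays. It was highest on array 3 within each group and lowest on P4 array 2. Cdh1, Cldn7, Epcam, Foxa2 and Krt8 were each highest on array 3 of both groups. Cldn7 was at 1841 and 2388 there, and Epcam at 2981 and 2697. Krt18, Krt19 and Wfdc2 did not have this order, and Wfdc2 and Krt19 were lowest of the oil arrays on array 3, at 5648 and 1738. The part of these cells in the result was not tested.

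**Figure D4:**
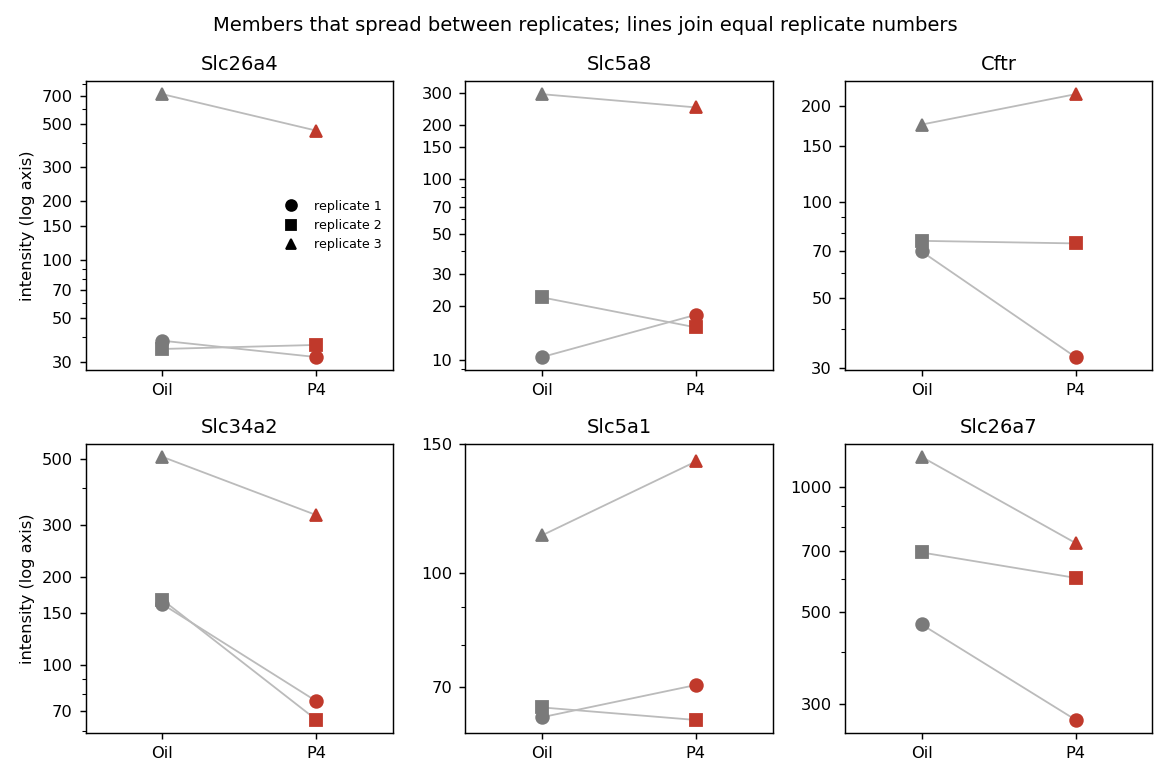
Intensity on a log axis of 6 members that varied between replicate numbers, with grey lines joining the oil and P4 arrays of the same number. In all 6 panels the array numbered 3 is the brightest of its group, and in Slc34a2 and Slc26a7 all 3 lines fall from oil to P4.

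With the replicate number as a block 10 of 65 members passed (15.4%), 4 higher and 6 lower, beside 20.9% of all genes (9.29% higher and 11.6% lower). The 5 members named at the start were all among them. The block added Slc12a4 as higher, and Slc34a2, Slc26a7, Slc8a1 and Slc24a3 as lower. In each of the 10 the difference had the same sign within all 3 numbers. These genes were selected by a fit on the same differences, so this agreement is no separate support. The sign was the same in 24 of all 65 members and in 52.0% of all genes. Clcn5 had 1.23, 1.15 and 1.03 within numbers 1, 2 and 3. Slc20a1 had 0.68, 0.97 and 0.48, and Slc5a3 -0.39, -0.59 and -0.60.

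**Figure D5:**
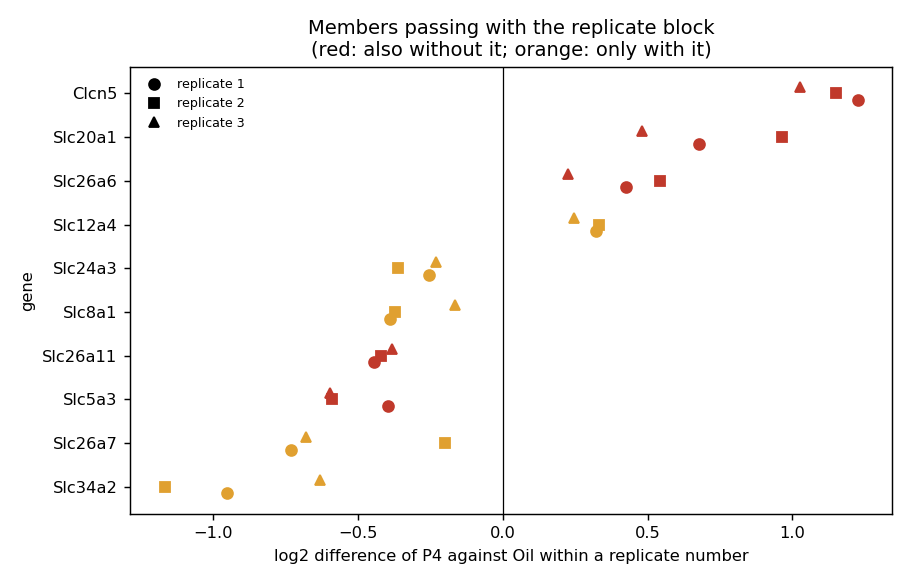
Log2 difference of the P4 array against the oil array of the same replicate number, on log2(intensity + 16), for the 10 members that passed with the replicate block. Red genes also passed without the block and orange genes did not, and for each gene the 3 points lie on 1 side of 0. The genes were selected by a fit on these same differences.

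Genes for chloride channels of other families were also measured. Of 19 such genes 2 rose and 0 fell, with a median of 0.00, and 13.0% of all genes passed. Clic6, an intracellular chloride channel protein, read 66.4, 66.7 and 171 after oil and 377, 394 and 301 after P4 (1.78 ± 0.30, adjusted p 0.00907). With another of its probe sets, used where those whose names end in _s_at or _x_at were dropped, the difference was 0.41 and did not pass (adjusted p 0.0787). Clic3 had 42.8 ± 3.15 and 67.4 ± 10.3 (0.50 ± 0.11, adjusted p 0.0253) and lost its call when any 1 array other than P4 replicate 3 was left out (up to 0.0899). Ano1, the calcium-activated chloride channel of smooth muscle and pacemaker cells, had 3093 ± 259 and 3045 ± 359 (-0.03 ± 0.10).

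Of 10 measured scaffolds and partner subunits only Ostm1 passed, where 13.0% of all genes did. Slc9a3r1, a scaffold that tethers Cftr and Slc9a3, had 459 ± 67.1 and 463 ± 65.8. Ahcyl1, which encodes the bicarbonate transport regulator IRBIT, had 0.15 ± 0.08 (adjusted p 0.304). Of 3 measured sodium pump subunits, Atp1b1 was higher, at 1471 ± 179 and 5949 ± 1268 (adjusted p 0.000606), Atp1b2 had -0.39 ± 0.11 (0.0565) and Atp1b3 0.09 ± 0.10. When the 2 arrays numbered 2 were dropped together, Atp1b1 still passed (0.0379), and Clic6, Clic3, Oxsr1, Wnk4 and Ostm1 did not (0.158 to 0.254).

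The medians of the 6 arrays ran from 117 to 123. Markers of the labelled tissue were present on each array: the summed intensity of 5 smooth muscle markers ran from 32053 to 32287 after oil and from 29327 to 34937 after P4, and that of 6 stromal markers from 30890 to 32502 and from 30484 to 37009. Of these, Hand2 and Hoxa10 of the stroma passed as higher. Among 8 epithelial markers 0 passed, with a median difference of -0.35 and an unadjusted p under 0.05 for 3 lower. Of 5 endothelial markers Tek passed as lower, and 0 of 4 granulocyte, 4 macrophage, 4 neuronal, 3 red cell and 2 adipocyte markers passed. Macrophage sums ran from 1697 to 3509 and from 2005 to 4879, neuronal sums from 271 to 356 and from 337 to 367, red cell sums from 236 to 245 and from 222 to 244, and adipocyte sums from 282 to 472 and from 193 to 285. No marker was at 0. The part of any of these in the members' differences was not tested. Scaling to the hybridisation controls, whose log2 difference of P4 against oil was -0.13, moved the median of all genes by 0.11, and 4 members (Clcn5, Slc20a1, Slc24a4 and Slc26a6) then passed as higher and 0 as lower, beside 13.6% of all genes (10.1% higher and 3.45% lower).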

How the data were processed

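Total RNA of 6 mouse uterus samples was hybridised to expression arrays as biotinylated cRNA, per the labels' protocols. The authors deposited one linear intensity for each probe set on each array. The method of summary and scaling behind these intensities was not stated in the labels. Of 45101 probe sets, 64 were controls, 34945 had 1 gene symbol in the platform annotation, 932 had several and 9160 are unnamed here. All 65 members matched RefSeq, with 0 symbols changed.

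Intensities were analysed as log2(intensity + 16) with no normalization, array medians spanning 0.06 log2. Each of 18193 genes was represented by its probe set of highest mean log2 value. The model was fitted with limma 3.58.1 (R 4.3.3; lmFit, then eBayes with trend) on all 6 arrays and no covariate. Two-sided p-values were adjusted by Benjamini and Hochberg's method across the genes, with 0.05 as threshold. The fit was tested on simulated data of 18193 genes, where it found 37.8% of changes of 0.5 log2 and 82.4% of changes of 1 log2. These rates are not for the members alone, of which 30 lay among the dimmest 30% of genes. The number of arrays limits precision, and a gene that did not pass may still differ.

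Replicate numbers recur in oil and P4. Equal-numbered arrays had correlations of deviations of 0.53, 0.13 and 0.64, all above the limit of 0.1. They were treated as pairs in the fit with the block, and not in the fit without a covariate. Oil array 2 correlated better with P4 array 1 (0.29) than with P4 array 2 (0.13), so the pairing of number 2 is weak. The data, not the labels, are the basis for the pairing, and the p-values with the block rest on it. Results with the number as a block are printed where a call changed.

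The members and lists were chosen with earlier results of these data known. The rule named members that passed, the member with the smallest p in each family with none, members of which another probe set gained or lost the call (Slc4a4 among them) or had the opposite sign at an unadjusted p under 0.05 (0 members), and genes that passed in 4 companion lists. Clcn6, Slc5a1, Slc5a8, Slc12a2, Slc12a4, Slc24a3, Slc26a4 and Slc26a7 were named after their values were seen, and further members by role. Figures were drawn with matplotlib 3.10.9.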

Additional observations from a re-analysis of the deposited data

How the results depend on the processing

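Of the 5 members that passed, Clcn5 kept its call under all 19 alternatives and Slc20a1 under 18 of 19. Slc26a11 kept it under 15 of 19, Slc26a6 under 12 of 18 and Slc5a3 under 11 of 19, and the lost calls are given with the genes. The differences of Cftr, Slc26a4, Slc5a8 and Slc5a1, none of which passed, changed sign with the array left out. With the replicate block 3801 genes and 10 members passed, in place of 2368 and 5, and it changed no member's call but those of the 5 named beside it. When the 2 arrays numbered 2 were dropped together, 171 genes, 1 member and 1 of the 6 companion genes passed. Leaving out 1 array gave 993 to 2302 genes, 2 to 6 members and 2 to 5 companion genes. The counts of genes, members and companion genes were 993, 2 and 2 with oil array 2 dropped, 1170, 2 and 3 with oil array 1 dropped, and 1401, 3 and 3 with P4 array 2 dropped. With P4 array 3 dropped 3 members passed. The other alternatives were normalizations, pseudocounts of 1 and 50, filters on the dimmest 30% and 50% of genes, the choice of probe set and the moderation, and they kept these 3 counts within 1.5 times. The companion counts were added after the data had been seen. Fewer arrays were tested where arrays were dropped, and the cause of the other changes was not tested.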
